A study of Mus musculus with 7 samples.

Results

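The proteasome genes of mouse were taken as every protein-coding gene of the GENCODE vM21 annotation whose symbol begins with Psma, Psmb, Psmc, Psmd, Psme, Psmf or Psmg. This rule found 50 genes among the 48795 in the deposited table, and 48 of them reached the minimum of 10 counts in 3 or more libraries. Psma8, the alpha subunit of the testis, and Psmb11, the beta subunit of the thymic cortex, had 0 counts in all 7 libraries. Psmc3ip meets the rule by its symbol, although it encodes a factor of meiotic recombination and is no proteasome subunit, so it stands as a class of its own.

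RNA was sequenced in bulk from light zone germinal centre B cells of mouse spleen, collected on day 10 after an intravenous dose of sheep red blood cells. The 3 MIZ1KO libraries came from mice of that genotype label and the 4 Control libraries from mice labelled Control, and both groups were immunised. Sample titles read MizFF for the first group and eYFP for the other. The sources used here do not give the allele, any Cre driver, the age or the sorting gate. The labels do not tie each sample to its own mouse, so the p-values measure the spread between samples, which may be technical. MIZ1 is the zinc finger transcription factor encoded by Zbtb17.

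The proteasome degrades proteins that carry a chain of ubiquitin. Its 20S core is a barrel of outer alpha rings and inner beta rings, and 3 of the beta subunits cut peptide bonds: Psmb5 after hydrophobic residues, Psmb6 after acidic ones and Psmb7 after basic ones. Lymphoid cells and cells exposed to interferon replace these with Psmb8, Psmb9 and Psmb10, and the resulting immunoproteasome makes many of the peptides shown on MHC class I. The 19S cap binds, deubiquitinates and unfolds the substrate through a ring of ATPases and a lid, and other activators can take its place.

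Promoters are shown for 3 members: Psmc1, which had the largest log2 fold change, Psmd10, which had the smallest, and Psmb5, which holds an antioxidant response element, the motif through which NFE2L1 (NRF1) acts on proteasome genes. Each runs 5′ to 3′ on the gene's strand from 250 bases before the annotated start to 50 after it, in RefSeq coordinates of GRCm38.p6, and capitals mark a motif match. Psmc1 (chr12:100109952-100110251, plus strand) holds CCAAT at 175 bases before the start, Psmd10 (chrX:140956662-140956961, minus strand) holds CCAAT or its complement at 230, 47 and 24 bases before it, and Psmb5 (chr14:54617946-54618245, minus strand) holds TGACGTCGC at 47 bases before it.
Psmc1: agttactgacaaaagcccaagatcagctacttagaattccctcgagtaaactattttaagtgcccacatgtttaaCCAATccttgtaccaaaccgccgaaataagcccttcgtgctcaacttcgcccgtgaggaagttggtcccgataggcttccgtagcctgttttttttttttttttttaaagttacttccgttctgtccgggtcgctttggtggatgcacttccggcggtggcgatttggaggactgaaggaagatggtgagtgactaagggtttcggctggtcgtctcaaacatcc
Psmd10: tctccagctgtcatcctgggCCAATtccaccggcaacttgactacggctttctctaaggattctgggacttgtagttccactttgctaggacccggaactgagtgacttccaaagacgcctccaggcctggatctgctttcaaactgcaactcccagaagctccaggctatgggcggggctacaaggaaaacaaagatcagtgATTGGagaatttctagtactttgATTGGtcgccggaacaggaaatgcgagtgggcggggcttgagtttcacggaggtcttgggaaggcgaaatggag
Psmb5: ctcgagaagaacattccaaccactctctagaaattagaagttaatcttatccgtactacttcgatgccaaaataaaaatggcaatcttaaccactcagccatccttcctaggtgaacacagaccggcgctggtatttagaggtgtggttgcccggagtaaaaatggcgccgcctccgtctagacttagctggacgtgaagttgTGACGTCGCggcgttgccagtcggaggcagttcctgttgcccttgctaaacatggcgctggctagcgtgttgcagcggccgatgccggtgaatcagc
RefSeq promoters of this length were matched for 41 of the 48 members and for 27025 genes in all, and both strands were searched. The antioxidant response element TGACNNNGC was found in 6 of the 41 (14.6%), against 14% of all promoters: Psmb5, Psmb6, Psmc6, Psmd12, Psme4 and Psmd9. CCAAT was found in 14 members (34.1%), against 41.1% of all. The E-box CACGTG, a core that several basic helix-loop-helix factors bind, was found in 4 members (9.76%), against 8.09%, and these were Psma4, Psmb10, Psme3 and Psmd9. The members' log2 fold changes with and without a motif were not compared.

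Levels are in CPM, read counts relative to the TMM-scaled total of the library, and a fold change is MIZ1KO over Control. None of the 48 members passed the quasi-likelihood F-test of edgeR at an adjusted p under 0.05. Of the 11618 genes tested 692 did (5.96%), 221 of them higher in MIZ1KO (1.9%) and 471 lower (4.05%). Of the 9812 protein-coding genes in the same fit, 406 did (4.14%). With the minimum of 10 counts applied to every gene, the calls over all genes were 309 higher and 402 lower, and with a correction for GC content and length they were 115 higher and 154 lower. The members' adjusted p ran from 0.0636 for Psmc1 to 0.948. At an unadjusted p under 0.05 there were 10 members (20.8%), against 24.6% of all genes tested and 21.2% of the protein-coding genes. Of the 48 members, 9 had such a p with a higher level in MIZ1KO and 1 with a lower level. Of all 11618 genes tested, 1152 were higher at that threshold (9.92%) and 1704 lower (14.7%). Of the 9812 protein-coding genes, 1098 were higher and 981 lower. DESeq2 called 1 member higher, Psmc1, where it called 3.64% of all genes higher, and limma-voom called 0.

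The median log2 fold change of the 48 members was 0.14, within a range from -0.88 (Psmd10) to 0.80 (Psmc1), and 31 of them (64.6%) were above 0. Over all genes tested the median was -0.03 and 47.7% were above 0, and over protein-coding genes the values were 0.03 and 52.5%. All 3 MIZ1KO libraries lay above all 4 Control libraries in 5 members, which were Psmc1, Psmc4, Psmd2, Psmd7 and Psme3, and below them in 0. This is 10.4% of the members. Among all genes tested, 19.5% had groups that did not overlap, 8.74% with MIZ1KO above and 10.8% with it below. Among the 9812 protein-coding genes it was 17.8%, 970 genes with MIZ1KO above and 778 with it below. The median SE of a member's log2 fold change was 0.27. With the correction for GC content and length, 11 members changed sign, 6 of them to above 0, and 32 were above 0. In bulk RNA, fewer cells of a type and less RNA per cell cannot be told apart.

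**Figure D1:**
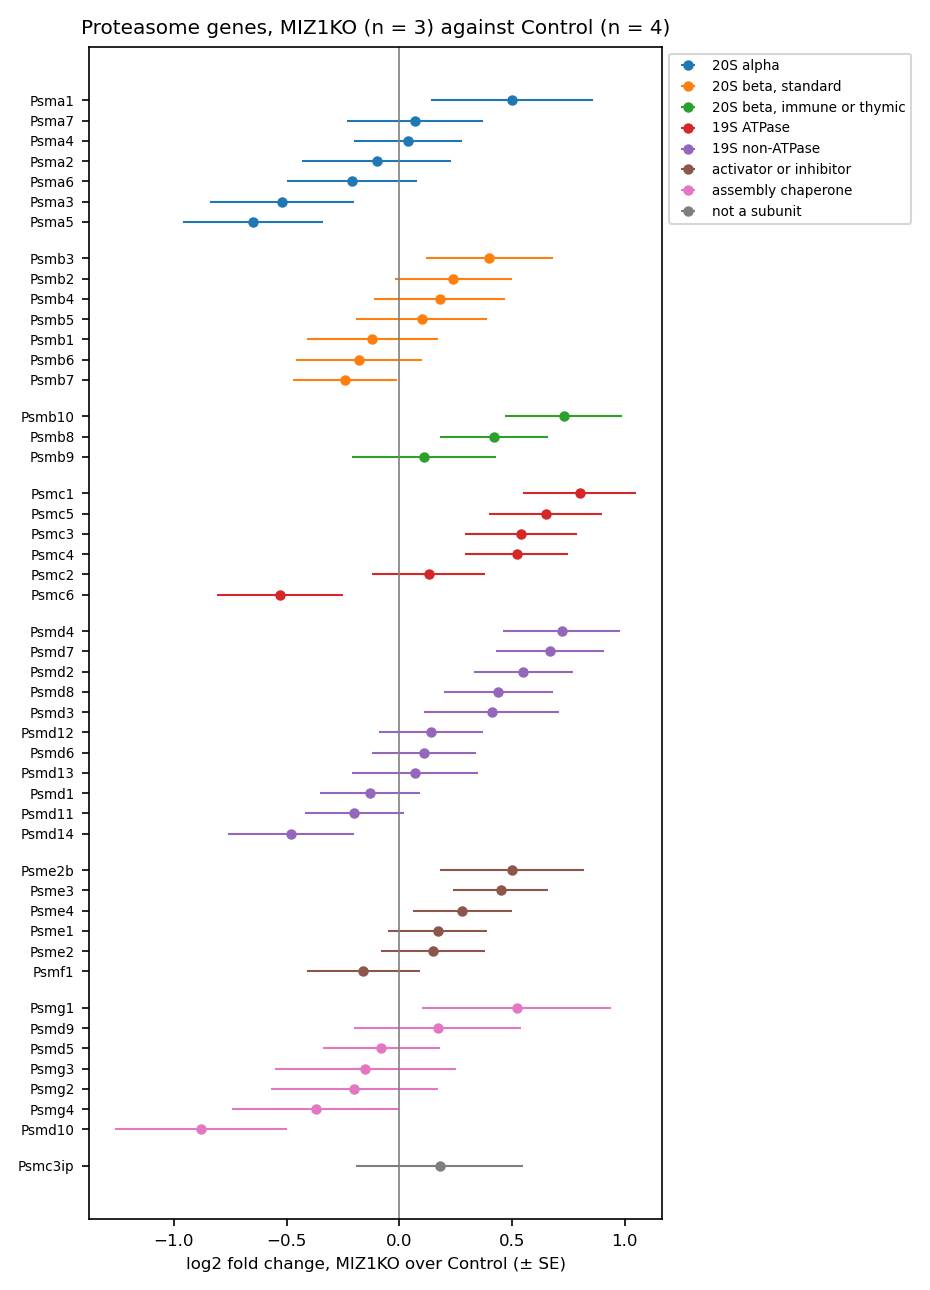
Log2 fold change of each of the 48 members, MIZ1KO (n = 3) over Control (n = 4), with bars of 1 SE from edgeR, ordered by value within each structural class. Points run from -0.88 (Psmd10) to 0.80 (Psmc1), and 5 of the 6 ATPases lie above 0.

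Summed over the 48 members, the level was 2826, 3520 and 2686 CPM in MIZ1KO replicates 1 to 3 and 4074, 3004, 1828 and 2406 CPM in Control replicates 1 to 4. The means were 3011 ± 447 (SD, n = 3) and 2828 ± 959 (SD, n = 4), a ratio of 1.06. The highest single Control library was 2.23 times the lowest. Control replicate 1 stood at 1.69 times the mean of the other Controls, and Control replicate 3 at 0.578 times. The same order ran through single members: among the Controls, replicate 1 was highest in 35 of 48 members and replicate 3 was lowest in 37, where these libraries were highest and lowest in 33% and 28.9% of all genes tested.

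The highest Control library exceeded the lowest by a median factor of 2.18 over the members, from 1.23 for Psme4 to 4.51 for Psmg1. The median was 1.63 over the 6320 protein-coding genes with a mean of at least 9.93 CPM, the lowest among the members. In 45 members this factor was over 1.5. A fitted fold between the groups of more than 1.5 in either direction was found in 7 members. These are unlike measures, since the extremes of single libraries lie further apart than group means tend to. Over the 3 MIZ1KO libraries the median factor was 1.48, but a range over 3 libraries tends to be smaller than a range over 4. Another quantity followed the Control order in reverse: the share of non-ribosomal counts in TEC models (unverified gene models of the annotation) was 1.02, 1.62, 2.58 and 1.95% in Control replicates 1 to 4. It was 0.544, 0.603 and 0.923% in MIZ1KO. Malat1, a nuclear RNA, took 0.687 to 1.52% of those counts in Control and 0.256 to 0.49% in MIZ1KO. The part of either in the members' values was not tested.

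**Figure D2:**
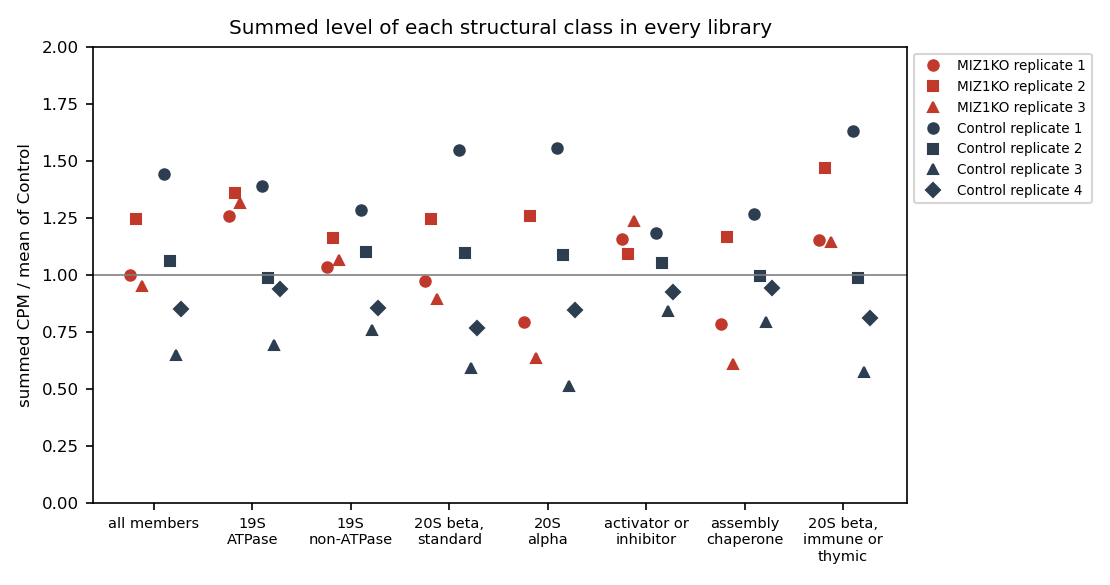
Summed CPM of each structural class in every library, divided by the mean of the 4 Controls. Control replicate 1 is the highest of the Controls and replicate 3 the lowest in each class plotted, and the 3 MIZ1KO libraries lie closest together for the 19S ATPases.

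The alpha rings hold the gate through which substrates enter the core. Of the 7 alpha genes, 3 were above 0, the median log2 fold change was -0.10 and none had an unadjusted p under 0.05 or an adjusted p under 0.208. Psma1 had the largest log2 fold change of the class. It stood at 78.8, 162 and 62.7 CPM in MIZ1KO and 132, 62.7, 33.6 and 59.1 CPM in Control. MIZ1KO replicate 2 and Control replicate 1 were the high libraries and the groups overlapped, with a log2 fold change of 0.50 ± 0.36 (SE, edgeR adjusted p = 0.423). Those libraries set its value: it was 0.05 without MIZ1KO replicate 2 (adjusted p = 0.953) and 0.97 without Control replicate 1 (adjusted p = 0.0416).

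Psma5 had the smallest value of the class. Its level was 77.2, 99.5 and 50.5 CPM in MIZ1KO and 174, 137, 50.5 and 118 CPM in Control. Control replicate 3 stood level with the lowest MIZ1KO library while the other Controls lay above all of MIZ1KO. The log2 fold change was -0.65 ± 0.31 (SE, edgeR adjusted p = 0.208), and without Control replicate 3 it was -0.86 with an adjusted p of 0.0445. The other 5 alpha genes ran from -0.52 for Psma3 to 0.07 for Psma7, which was at -0.30 with the GC and length correction. Psma7 had the highest level per length of all members in Control, at 153 CPM per kb of its principal transcript, followed by Psma6 at 134 CPM per kb.

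The 7 standard beta genes had log2 fold changes from -0.24 to 0.40 (Psmb3), with a median of 0.10 and 4 above 0, and none had an unadjusted p under 0.05. Psmb5, the chymotrypsin-like site, was at 64.3, 62.8 and 44.6 CPM in MIZ1KO and 84.7, 63.8, 32.5 and 34.3 CPM in Control. All 3 MIZ1KO values were inside the Control range, and the log2 fold change was 0.10 ± 0.29 (SE, edgeR adjusted p = 0.873), or -0.11 with the GC and length correction. Psmb6, the caspase-like site, was at 56.3, 68.4 and 62.7 CPM in MIZ1KO and 107, 83.8, 38.2 and 54.7 CPM in Control. Here too the MIZ1KO values lay within those of Control, with a log2 fold change of -0.18 ± 0.28 (SE, edgeR adjusted p = 0.737), or 0.09 without Control replicate 1.

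Psmb7, the trypsin-like site, had the smallest log2 fold change of all beta genes. It was at 50.3, 60.3 and 43.3 CPM in MIZ1KO and 84.2, 58.2, 43.8 and 56.4 CPM in Control, and the groups overlapped. Its log2 fold change was -0.24 ± 0.23 (SE, edgeR adjusted p = 0.575), and with the GC and length correction it was 0.15. Its exons overlap those of Nek6 on the opposite strand by 405 bases, and the sources used here do not say whether strand was used in counting.

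The 3 immune catalytic subunits were all above 0, with log2 fold changes of 0.11, 0.42 and 0.73. An unadjusted p under 0.05 was found for 1 of them, and for 24.6% of all genes tested. Psmb8, which replaces Psmb5, was at 180, 198 and 205 CPM in MIZ1KO and 219, 150, 97.2 and 115 CPM in Control. The MIZ1KO values lay together, above every Control but replicate 1, which was the highest library. Its log2 fold change was 0.42 ± 0.24 (SE, edgeR adjusted p = 0.297). Without Control replicate 1 it was 0.69 with an adjusted p of 0.0334, and with the GC and length correction 0.26 with 0.479. Psmb8 shares 498 exonic bases with the antisense model Gm20496, which did not count as expressed here.

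Psmb9, which replaces Psmb6, was at 150, 228 and 136 CPM in MIZ1KO and 286, 145, 78 and 127 CPM in Control. The groups overlapped throughout, and the log2 fold change was 0.11 ± 0.32 (SE, edgeR adjusted p = 0.868), or -0.12 with the GC and length correction. It lies beside the peptide transporter gene Tap1, and the exons of the pair overlap by 212 bases.

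Psmb10, which replaces Psmb7, was at 66.7, 79.6 and 52.9 CPM in MIZ1KO and 56.5, 44.8, 23.1 and 36.6 CPM in Control. MIZ1KO replicate 3 fell below Control replicate 1, and these were the libraries in which the groups overlapped. The log2 fold change was 0.73 ± 0.26 (SE, edgeR adjusted p = 0.0942), a fold with a 95% interval from 1.14 to 2.42. Without Control replicate 1 it was 0.94 with an adjusted p of 0.0208, and with the GC and length correction it was 0.44.

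Per kb of principal transcript, Psmb9 (118 CPM per kb) and Psmb8 (89.3 CPM per kb) stood above their standard counterparts Psmb6 (89 CPM per kb) and Psmb5 (59.9 CPM per kb) in the Control mean. Psmb10, at 30.7 CPM per kb, stood below Psmb7 at 52.3 CPM per kb. A ratio of genes within a library does not depend on how libraries are scaled, though it can move with their GC or length bias, and the ratio of each immune subunit to its counterpart was compared after the members' values had been seen.

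The level per length of Psmb10 was 1.17, 1.17 and 1.08 times that of Psmb7 in MIZ1KO and 0.594, 0.681, 0.466 and 0.574 times in Control. Every MIZ1KO library was above 1 and every Control library below it, with means of 1.14 ± 0.0513 (SD, n = 3) and 0.579 ± 0.0884 (SD, n = 4). The log2 ratios differed by 0.99, and an exact two-sided permutation test gave p = 0.0286, the smallest that 35 arrangements of the samples can give. Adjusted over the 3 pairs it was 0.0857, and separation of a single pair cannot give less in this design. The adjusted test could thus not reach 0.05 for 1 pair alone, and no conclusion is drawn from it. In the authors' deposited log2 values the same difference was 0.64. The exons of Psmb10 have a GC content of 56.5% and those of Psmb7 of 40.8%. With each library's trend of level on GC content and length removed, the ratio was 0.754 to 1.01 in MIZ1KO and 0.633 to 0.856 in Control. The groups then overlapped, the difference was 0.28 and the exact permutation p was 0.143.

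For Psmb8 over Psmb5 the ratio was 1.55, 1.74 and 2.54 in MIZ1KO and 1.43, 1.3, 1.65 and 1.86 in Control. The groups overlapped, and the log2 ratios differed by 0.30 (exact permutation p = 0.257, adjusted over the 3 pairs 0.257). For Psmb9 over Psmb6 it was 1.57, 1.97 and 1.28 in MIZ1KO and 1.57, 1.02, 1.2 and 1.37 in Control, again with overlap and a difference of 0.31 (exact permutation p = 0.2, adjusted 0.257). As a share of the summed level per length of the 6 catalytic genes, the immune subunits made up 59.5, 62.9 and 61.7% in MIZ1KO and 56.4, 50.8, 52.6 and 55.3% in Control. These shares did not overlap, with means of 61.4 ± 1.68% (SD, n = 3) and 53.8 ± 2.55% (SD, n = 4). With the GC and length trend removed they overlapped, at 56.2, 63.4 and 58.3% in MIZ1KO and 59.8, 53.9, 51.7 and 56.3% in Control.

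**Figure D3:**
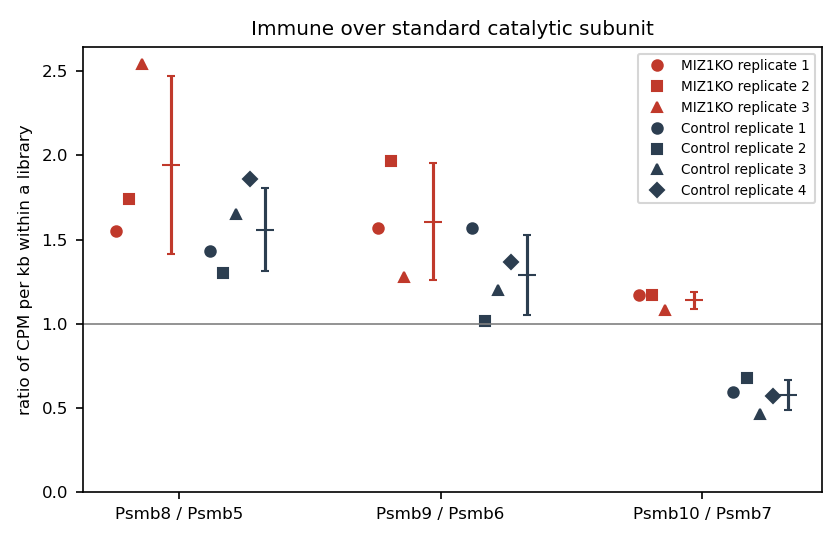
Ratio of the level per length (CPM per kb) of each immune catalytic subunit to that of the standard subunit it replaces, within each library, with mean and SD per group (MIZ1KO n = 3, Control n = 4). For Psmb10 over Psmb7 the MIZ1KO libraries sit between 1.08 and 1.17 and the Controls between 0.466 and 0.681, and the other ratios overlap between the groups. The values are without the GC and length correction, under which all 3 ratios overlap.

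The 6 ATPases, Psmc1 to Psmc6, form the ring of the 19S base that unfolds substrates and threads them into the core. Of these, 5 were above 0, the median log2 fold change was 0.53, and 4 had an unadjusted p under 0.05 (66.7%). Over all genes tested that share was 24.6%. Their summed level was 284, 306 and 297 CPM in MIZ1KO and 313, 222, 156 and 211 CPM in Control. Control replicate 1 was the highest library and the other Controls were below all of MIZ1KO. The means were 296 ± 10.8 (SD, n = 3) and 225 ± 65.1 CPM (SD, n = 4), a coefficient of variation of 3.65% against 28.9%. Over the 19 alternative settings the class median stayed between 0.36 and 0.69.

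Psmc1 (chr12, 100110154 to 100123405, plus strand) had the lowest adjusted p of the members. Its level was 53.8, 66.3 and 67.7 CPM in MIZ1KO and 42.2, 44.6, 19.8 and 36.9 CPM in Control, so the groups did not overlap. The means were 62.6 ± 7.65 (SD, n = 3) and 35.9 ± 11.2 CPM (SD, n = 4). The log2 fold change was 0.80 ± 0.25 (SE, edgeR adjusted p = 0.0636), and the 95% interval of the fold ran from 1.21 to 2.51. Over the alternatives its adjusted p ran from 0.0313 to 0.151. Psmc1 was called higher with DESeq2 (where 3.64% of all genes were), with the minimum of 10 counts applied to every gene (2.65%), with ribosomal RNA left out (2.56%) and with the GC and length correction (0.993%).

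Psmc5, Psmc3 and Psmc4 were at log2 fold changes of 0.65, 0.54 and 0.52 with edgeR adjusted p of 0.127, 0.19 and 0.173, and Psmc2 was at 0.13. With the GC and length correction Psmc5, Psmc3, Psmc4 and Psmc2 were at 0.62, 0.25, 0.40 and 0.49. The exons of Psmc3 overlap those of Slc39a13 on the opposite strand by 215 bases. Psmc4 did not overlap between the groups: it was at 47.5, 49.2 and 44.7 CPM in MIZ1KO and 42, 35.9, 23.4 and 30.7 CPM in Control. Psmc6 was the ATPase below 0. It stood at 28.7, 35 and 19.9 CPM in MIZ1KO and 61.6, 33.9, 32.4 and 34.2 CPM in Control. Control replicate 1 was far above the other libraries, and the log2 fold change was -0.53 ± 0.28 (SE, edgeR adjusted p = 0.247). With the GC and length correction it was 0.13.

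The 11 other subunits of the 19S particle, the scaffold of the base and the lid, were at a median log2 fold change of 0.14. Among them 8 were above 0, and 3 had an unadjusted p under 0.05 (27.3%, against 24.6% of all genes tested). Psmd4, a ubiquitin receptor, was at 42.1, 35.7 and 53.9 CPM in MIZ1KO and 36.3, 30.2, 17.7 and 22 CPM in Control. MIZ1KO replicate 2 and Control replicate 1 were close together, and the other MIZ1KO libraries were above every Control. The log2 fold change was 0.72 ± 0.26 (SE, edgeR adjusted p = 0.0998), with a 95% interval of the fold from 1.13 to 2.42. Without Control replicate 1 it was 0.91 with an adjusted p of 0.0282, and over the alternatives it ran from 0.48 to 0.92.

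Psmd14, the deubiquitinase of the lid, had the smallest value of the class. It was at 68.5, 105 and 54.2 CPM in MIZ1KO and 163, 104, 65.2 and 91.8 CPM in Control. The groups overlapped, with a log2 fold change of -0.48 ± 0.28 (SE, edgeR adjusted p = 0.304). Its partner in the lid, Psmd7, lay on the other side of 0. Psmd7 was at 43.4, 49.4 and 47.6 CPM in MIZ1KO and 37.5, 33, 20.3 and 27.2 CPM in Control, without overlap, and its log2 fold change was 0.67 with an adjusted p of 0.0916. Psmd2, a scaffold of the base, was at 58.5, 56.6 and 59.4 CPM in MIZ1KO and 46.6, 44.2, 27.6 and 40 CPM in Control. These groups did not overlap either, and the log2 fold change was 0.55 (adjusted p = 0.128).

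Over the 17 subunits of the 19S particle together, 13 were above 0, the median was 0.41 and 7 had an unadjusted p under 0.05 (41.2%). The share was 24.6% over all genes tested and 21.2% over protein-coding genes. Over the 14 alpha and standard beta genes of the core, 7 were above 0, the median was -0.03 and 0 had an unadjusted p under 0.05. The difference between these medians was not tested, since subunits of a complex are no replicates. Leaving out Control replicate 1 gave the highest medians of both rings of the core and both parts of the 19S particle, among them 0.18 for the alpha genes and 0.69 for the ATPases. With the GC and length correction the medians were 0.44 for the ATPases and 0.21 for the other 19S subunits. Under that correction the alpha genes were at 0.00 and the standard beta genes at 0.09.

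**Figure D4:**
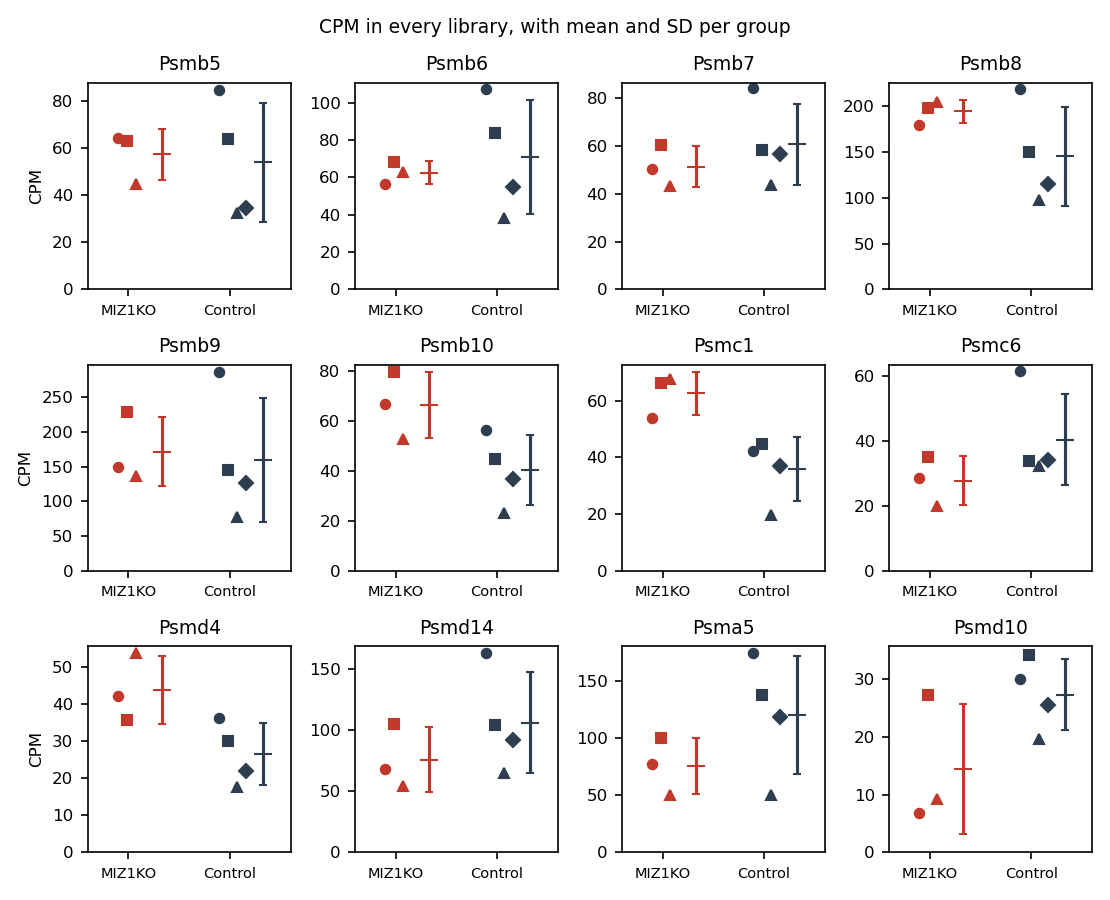
CPM of 12 members in every library, with mean and SD per group; circles, squares, triangles and diamonds are replicates 1, 2, 3 and 4. Psmc1 does not overlap between MIZ1KO and Control, while Control replicate 1 (circle) is the highest library of 8 of the other panels.

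Activators bind the ends of the core in place of the 19S particle. The 6 genes of activators and of the inhibitor had a median log2 fold change of 0.23, and 5 of them were above 0. An unadjusted p under 0.05 was found for 1 (16.7%), against 24.6% of all genes tested. Psme1 and Psme2 encode the subunits of PA28, which interferon gamma induces. Psme1 was at 148, 154 and 163 CPM in MIZ1KO and 181, 162, 98.6 and 110 CPM in Control, with the MIZ1KO values inside the Control range and a log2 fold change of 0.17 ± 0.22 (SE, edgeR adjusted p = 0.688), or -0.15 with the GC and length correction. Psme2 was at 102, 89.7 and 87.4 CPM in MIZ1KO and 118, 84.8, 56.7 and 75.2 CPM in Control. Its MIZ1KO values too lay inside those of Control, and the log2 fold change was 0.15 ± 0.23 (SE, edgeR adjusted p = 0.727).

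Psme3 encodes the nuclear PA28 gamma. It was at 68.7, 72.2 and 98.6 CPM in MIZ1KO and 60.1, 54.4, 50.7 and 67.7 CPM in Control. The groups did not overlap, although MIZ1KO replicate 1 and Control replicate 4 were nearly equal, and the log2 fold change was 0.45 ± 0.21 (SE, edgeR adjusted p = 0.188). Psme4, which encodes PA200, had the narrowest Control range of all members. It was at 77.9, 47.6 and 61.3 CPM in MIZ1KO and 46.3, 56.6, 55.6 and 46.1 CPM in Control, and its log2 fold change was 0.28 ± 0.22 (SE, edgeR adjusted p = 0.445).

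Psme2b, a close copy of Psme2, had the largest value of these genes. It was at 13.5, 11 and 14.8 CPM in MIZ1KO and 6.43, 9.49, 9.71 and 11 CPM in Control, with a log2 fold change of 0.50 ± 0.32 (SE, edgeR adjusted p = 0.357). Control replicate 4 reached the lowest MIZ1KO library, and reads of such copies may be split between them, so both counts are uncertain. Psmf1, the inhibitor PI31, had the smallest value. It was at 22.1, 32.5 and 34.3 CPM in MIZ1KO and 28.6, 25.4, 42.9 and 34.5 CPM in Control. The groups overlapped, with a log2 fold change of -0.16 ± 0.25 (SE, edgeR adjusted p = 0.75), or 0.07 without MIZ1KO replicate 1 and 0.03 without Control replicate 3.

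Assembly chaperones guide the rings and the base together and leave the finished particle. Of the 7 genes, 2 were above 0, and the median log2 fold change was -0.15. Psmg1, a chaperone of the alpha ring, was at 15.6, 12.1 and 8.69 CPM in MIZ1KO and 11.1, 15.4, 3.41 and 5.31 CPM in Control. The groups overlapped, and the log2 fold change was 0.52 ± 0.42 (SE, edgeR adjusted p = 0.478).

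Psmd10, which encodes gankyrin, a chaperone of the base, had the lowest log2 fold change of all members and was the one lower member with an unadjusted p under 0.05. Its level was 6.77, 27.3 and 9.17 CPM in MIZ1KO and 30, 34.2, 19.7 and 25.5 CPM in Control. MIZ1KO replicates 1 and 3 were below every Control, while replicate 2 was among them. Its log2 fold change was -0.88 ± 0.38 (SE, edgeR adjusted p = 0.157), and the 95% interval of the fold ran from 0.313 to 0.937. Each MIZ1KO library moved it: without replicate 2 it was -1.73 (adjusted p = 0.0188), without replicate 1 it was -0.49 (0.526) and without replicate 3 it was -0.66 (0.366). Psmc3ip, the gene that is no subunit, was at 19.8, 6.49 and 8.53 CPM in MIZ1KO and 10.1, 11.4, 9.19 and 10.7 CPM in Control. MIZ1KO replicate 1 was the highest library, and the log2 fold change was 0.18 ± 0.37 (SE, edgeR adjusted p = 0.815), or -0.43 without that library.

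Leaving out a library changed the count of calls among members from 0. Without Control replicate 1 there were 7 members with an adjusted p under 0.05, all higher in MIZ1KO (Psmc1, Psmc5, Psmd4, Psmd7, Psmb8, Psmb10 and Psma1), where 4.6% of all genes tested were called in that direction. Without Control replicate 3 it was Psma5, lower in MIZ1KO (2.26% of genes), and without MIZ1KO replicate 2 it was Psmd10, also lower (1.63% of genes). No member was called when any other library was left out.

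Of the genes that act beside the proteasome, 3 lists are described, and apart from Calr no gene in them passed the test. The list of partners outside the symbol rule had 11 genes tested, with 7 above 0 and a median of 0.05 on the log2 scale. Zfand2a, a zinc finger protein of the arsenite response that binds the proteasome, was at 13.8, 16.3 and 11.6 CPM in MIZ1KO and 6.3, 3.73, 8.27 and 6.92 CPM in Control, without overlap (log2 fold change 1.13 ± 0.34, SE, edgeR adjusted p = 0.0586). Adrm1, a ubiquitin receptor of the base, was at 0.72 (adjusted p = 0.0908). Ube3c, a ubiquitin ligase of the particle, was at -0.75 (adjusted p = 0.0843), and Zfand5 was at -0.31.

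The genes that control proteasome genes gave 6 of 8 above 0 and a median of 0.14. Nfe2l1, the factor that raises proteasome genes when degradation is blocked, averaged 32.8 ± 9.78 CPM (SD, n = 3) in the MIZ1KO libraries and 28.6 ± 10.3 CPM (SD, n = 4) in the Controls, at a log2 fold change of 0.17 ± 0.29 (SE, edgeR adjusted p = 0.77). Keap1, Vcp, Nfe2l2 and Ngly1 did not overlap between the groups, where 19.5% of all genes tested did not. Their log2 fold changes were 0.78, 0.50, 0.39 and -0.82 with adjusted p of 0.0859, 0.127, 0.304 and 0.123, and Keap1 was at 0.34 with the GC and length correction. NGLY1 and VCP both act in releasing NFE2L1 from the endoplasmic reticulum. NFE2L2 is the related factor that KEAP1 holds back.

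All 15 genes of MHC class I presentation and its inducers were above 0, their median was 0.32 on the log2 scale, and 1 of them passed the test, against 5.96% of all genes tested. Calr, which encodes the chaperone calreticulin of the peptide loading complex, was at 214, 192 and 270 CPM in MIZ1KO and 170, 113, 106 and 125 CPM in Control. It rose from a Control mean of 129 ± 28.7 (SD, n = 4) to 225 ± 40.4 CPM (SD, n = 3), without overlap, with a log2 fold change of 0.81 ± 0.22 (SE, edgeR adjusted p = 0.0365). The call was lost in 7 of the 19 alternatives, with the log2 fold change still between 0.66 and 0.89: among them were limma-voom (adjusted p = 0.0501) and the fits without MIZ1KO replicate 1 (0.125) or 3 (0.137) and without Control replicate 2 (0.114) or 4 (0.0918). H2-D1 and H2-K1, class I heavy chains, were at 0.56 and 0.45 with adjusted p of 0.103 and 0.195. Irf1, an inducer of the immune subunits, was at 0.71 (adjusted p = 0.204). Over the 19 alternatives the log2 fold change ran from 0.23 to 0.67 for H2-D1, from 0.14 to 0.57 for H2-K1 and from 0.40 to 0.89 for Irf1.

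Library totals ran from 6896673 to 9482453 counts, of which 46.4 to 56.1% lay in ribosomal RNA, so that 3087992 to 5085019 counts per library lay outside it. Markers of germinal centre B cells summed to 3177 to 3399 CPM in MIZ1KO and 2389 to 3459 CPM in Control, and light zone markers to 485 to 594 and 437 to 648 CPM. Single markers went both ways: 6 of 9 and 2 of 4 were above 0. Cd79a was called higher (log2 fold change 0.86, edgeR adjusted p = 0.0333), as were 1.9% of all genes tested. Cd79b and Mef2b were at 0.80 and 0.81, and Fas and Cd86 at -0.57 and -0.41, each without overlap. Dark zone markers summed to 353 to 439 CPM in MIZ1KO and 317 to 449 CPM in Control, and plasma cell markers to 177 to 255 and 205 to 377 CPM. Those of T cells summed to 1.72 to 16.9 CPM in MIZ1KO and 0.131 to 1.56 CPM in Control, those of myeloid cells to 2.9 to 21.6 and 4.85 to 9.62 CPM, and those of erythroid cells to 60.8 to 486 and 114 to 420 CPM. Of the myeloid markers, Itgam and Adgre1 were at most 0.131 CPM, while Lyz2 was at 2.04, 13.5 and 16.4 CPM in MIZ1KO and 2.75 to 3.54 CPM in Control. The part of these cells in the members' values was not tested. Zbtb17, at 5.16, 3.7 and 4.5 CPM in MIZ1KO and 3.15, 3.42, 3.15 and 7.02 CPM in Control, had a log2 fold change of 0.03 ± 0.46 (SE, edgeR adjusted p = 0.975). Its counts are summed over the whole gene and the allele is not given, so whether they bear on the genotype labels cannot be told.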

How the data were processed

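RNA of 7 samples was measured. The authors deposited expected counts (estimates for each gene that need not be whole, not normalized), and 6.61% of the values were not whole. STAR 2.5.2, RSEM 1.3.0, DESeq2 1.18.1, R 3.4.3 and GRCm38 are named per the submitters' processing notes, with no role or order. A table of log2 values, deposited by the authors, entered as an alternative. The sources used here do not give the annotation release, the use of strand or the log2 function. Counts were rounded, filtered with filterByExpr, scaled by TMM and tested in edgeR 4.0.16 (R 4.3.3) by its robust quasi-likelihood F-test, two-sided, with Benjamini-Hochberg adjustment over 11618 genes and a threshold of 0.05. The SE is the log2 fold change over the square root of F, and intervals are 95%. Symbols, gene types and transcript lengths came from GENCODE vM21, and 0 columns were left unmapped. The structural classes of the members are not part of that annotation and were assigned separately. Values that were not whole occurred in 16 of 48 members, and 15 overlap another gene's exons, so their counts are less certain. In 7 of these 15 the other gene was expressed. Every group is given by the genotype label, and the replicate numbers by the titles.

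Values in every library are printed for the catalytic subunits, the activators and, in each class (the standard and immune beta subunits taken as 1 class), the members with the largest and smallest log2 fold change. Beyond these, Psmc3ip, Psmc4, Psmd2 and Psmd7 were added after their values were seen. From each related list up to 4 genes with the smallest p are named, and Nfe2l1 was added after its values were seen. A list of related genes is not reported here. The members, lists and tests were chosen with earlier results of these data known. The fit was tested on simulated data. Of genes given a log2 change of 1 it called 58%, and of those given -1 it called 44%. At changes of 0.5 and -0.5 it called 2% and 6%, so most changes of that size would be missed. In addition, 19 alternatives were run, with limma 3.58.1 and DESeq2 1.42.0 among the tools.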

Additional observations from a re-analysis of the deposited data

Results flagged for a closer look

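Among 64 genes examined, 2 had a Control library far from the other 3 by Dixon's test at its 95% critical value, and chance alone flags about 1 in 20 groups. Psmc6, an ATPase of the 19S base, was at 61.6 CPM in Control replicate 1 and at 32.4 to 34.2 CPM in the other Controls, a gap of 0.94 of the whole range. Psmg3, a chaperone of core assembly, was at 21.6 CPM in Control replicate 1 and at 7.61 to 9.62 CPM in the others, a gap of 0.857 of the range.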

How the results depend on the processing

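The 692 calls over all genes became 315 among protein-coding genes alone, 319 with limma-voom, 1120 with DESeq2 and 269 with the correction for GC content and length. Leaving out a library moved them between 39 and 1350. The count of members called was 1 with the minimum of 10 counts applied to every gene, with ribosomal RNA left out, with DESeq2 and with the GC and length correction. In each of these it was Psmc1, with an adjusted p of 0.0499, 0.0457, 0.0343 and 0.0378. Over the left-out libraries the count ran from 0 to 7, and it was 0 in 12 of the 19 alternatives. In all, 9 members were called in at least 1 alternative, and 27 of 48 had the same sign in all 19. The members' median log2 fold change ran from 0.05 to 0.33 over the alternatives. Its between-library SD was 0.326, an unlike measure, since it is the spread of single libraries and not of refits. The difference in log2 ratio of Psmb10 to Psmb7 was 0.64 in the deposited log2 values, 0.28 with the GC and length trend removed, an alternative chosen after seeing the data, and 0.89 to 1.07 without each library. The cause of these differences was not tested. The labels do not say whether the replicate numbers pair the samples. Deviations of same-numbered libraries correlated at 0.02, 0.07 and 0.16, and 2 of the 3 correlated best with their own number, so pairing stays undecided. A fit with the replicate block gave 476 calls over all genes, 0 members and a median of 0.09, and the block with the GC and length correction gave 118 calls over all genes. The adjusted p of Calr was 0.0642 in both, above the threshold of 0.05. With 3 and 4 libraries and 3087992 or more counts outside ribosomal RNA in each, the median SE of a member of 0.27 limits what could be called.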
